A study of Mus musculus with 9 samples.

Results

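Very large proteins of the cytoskeleton, the nuclear envelope and the ubiquitin system are encoded by Sptan1, Sptbn1, Syne1, Syne2, Macf1, Dst, Ahnak, Ubr4, Huwe1 and Herc1. These 10 genes of 54325 gene symbols, with 135 of 140658 transcripts, were picked by name for their very long coding sequences from a table of RIP-seq counts whose values were already known. The counts below therefore describe the 10 genes, and their number past a threshold supports nothing about long mRNAs as a class. RIP-seq sequences the RNA fragments that co-purify with a protein. Here the protein was phosphorylated UPF1 (p-UPF1), and the cells were N2A cells (Neuro-2A), a mouse neuroblastoma line and thus 1 clonal cell population. All 9 libraries, controls included, came from cells treated with 200 nM okadaic acid, a phosphatase inhibitor, for 2 h. They were 3 libraries of RNA taken without immunoprecipitation (input), 3 of RNA pulled down with control rabbit IgG (rIgG IP) and 3 of RNA that a p-UPF1 antibody pulled down (p-UPF1 IP). The labels do not say whether replicate libraries came from separate cultures, so the p-values measure the spread between these libraries, which may be technical.

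UPF1 is the RNA helicase at the centre of nonsense-mediated mRNA decay (NMD), and its phosphorylation marks mRNAs committed to that pathway. Spectrins, built from an alpha chain (Sptan1) and a beta chain (Sptbn1), form the lattice under the plasma membrane and along axons. Nesprins (Syne1, Syne2) span the outer nuclear membrane and tie the nucleus to actin and microtubules, and the plakins Macf1 and Dst cross-link actin with microtubules. Ahnak is a giant scaffold protein at the plasma membrane. Ubr4 is an N-recognin-type ubiquitin ligase, and Huwe1 and Herc1 are ubiquitin ligases of the HECT class.

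An input library held 25184464 to 29857955 counts in all, a p-UPF1 IP library 5312526 to 6246110 and an rIgG IP library 79010 to 474491. A count of 3, taken as the smallest that the depth can show, corresponded to at most 0.141 CPM in the input and 0.534 CPM in the p-UPF1 IP, but to between 7.53 and 24.1 CPM in the rIgG IP. CPM is the usual depth-scaled unit, here for a gene's counts summed over its transcripts after TMM scaling across the 9 libraries. Only counting error enters these floors, since reads without molecular identifiers may be copies of 1 fragment. Of the 14 neuroblastoma markers, 13 had enough counts to be tested, and Uchl1 reached 90.5 ± 4.25 CPM (SD, n = 3) in the input. Th and Dbh lay below 1 CPM in the input (0.849 and 0.382 CPM). Of the 10 markers of other cell types only Pecam1 (1.66 CPM) and Mbp (1.23 CPM) passed the filter, and Mbp was higher in the p-UPF1 IP (9.03 CPM, edgeR adjusted p = 4.52e-06). Alb, Krt5 and Myh6 were at 0 in every library.

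The coding sequences of the 10 genes in the GENCODE M21 annotation (GRCm38) ran from 7089 nt for Sptbn1 on chromosome 11 to 26397 nt for Syne1 on chromosome 10. All but Ahnak are split into many exons. The longest coding transcript had 146 exons for Syne1, 116 for Syne2, 106 for Ubr4, 103 for Dst, 98 for Macf1, 83 for Huwe1, 78 for Herc1, 57 for Sptan1 and 36 for Sptbn1. Ahnak on chromosome 19 differed in this respect, with a coding sequence of 16968 nt in a transcript of 5 exons. The genes on the plus strand were Sptan1 at chr2:29965560-30031451, Syne2 at chr12:75818134-76110926, Dst at chr1:33908225-34308661, Ahnak at chr19:8989284-9076914, Ubr4 at chr4:139352609-139489588, Huwe1 at chrX:151800807-151935417 and Herc1 at chr9:66350450-66508775. Those on the minus strand were Sptbn1 at chr11:30099395-30268175, Syne1 at chr10:5020917-5551482 and Macf1 at chr4:123349633-123684360.

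All 10 mRNAs were measured well in the input. The gene with the fewest counts, Syne1, had 823, 798 and 828 in the 3 input libraries, and Huwe1, with the most, had 4594, 4213 and 4752. Per kilobase of the transcript, the order in the input ran from Sptbn1 (16.6 ± 0.440 CPM per kb, SD, n = 3) through Sptan1 (15.6 ± 0.547) and Huwe1 (13.8 ± 0.425) to Ubr4 (6.94 ± 0.441), Ahnak (6.59 ± 0.335), Dst (5.89 ± 0.308), Syne2 (5.09 ± 0.284), Herc1 (4.73 ± 0.210), Macf1 (2.21 ± 0.116) and Syne1 (1.30 ± 0.0597). The length used was that of the transcript with the longest coding sequence. By this length, the ranges of the 3 libraries overlapped only between the neighbours Ubr4 and Ahnak and between Syne2 and Herc1. For Dst that transcript has 23201 nt, but most input counts were assigned to Dst-202, of 17212 nt. The place of Dst in the order therefore depends on the length chosen. The spectrin mRNAs stood highest per length and Syne1, the longest of the 10, stood lowest.

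Together the 10 genes took between 0.0844% and 0.0966% of all counts in the input libraries, between 0.0731% and 0.103% in the rIgG IP and between 0.145% and 0.169% in the p-UPF1 IP. This share uses raw totals and no scaling factor. It was higher in each p-UPF1 IP library than in any of the other 6 libraries.

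Setting the p-UPF1 IP against input asks which mRNAs were recovered with p-UPF1 beyond their abundance. By edgeR's quasi-likelihood test on summed counts, Syne1, Ubr4, Syne2, Dst, Sptan1 and Herc1 were higher in the p-UPF1 IP, Ahnak was lower, and Sptbn1, Huwe1 and Macf1 did not pass an adjusted p of 0.05. Thus 6 of 10 were higher and 1 was lower, where 26.3% of the 16919 genes tested were higher and 35.7% lower. This balance depends on the scaling: higher calls made up 42.4% of all calls with TMM and 56.7% with library totals in place of TMM, where 9 of the 10 genes were higher and 1 lower. At the threshold of a log2 fold change above 1, only Syne1 was enriched (17.2% of all genes), and Ubr4 lay just under it. With library totals 3 genes passed it (Syne1 at 1.63, Ubr4 at 1.38 and Syne2 at 1.17), and over the 13 alternatives 1 to 3 did. The median log2 fold change was 0.37 over the 10 genes and -0.42 over all genes tested.

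The nesprin mRNAs both rose. Syne1 stood at 37.3, 37.4 and 34.5 CPM in the input and at 77.2, 88.8 and 94.2 CPM in the p-UPF1 IP. Its log2 fold change was 1.23 ± 0.08 (SE), a 2.34-fold difference (edgeR adjusted p = 4.7e-07). Syne2 had 115, 113 and 103 CPM in the input against 189, 196 and 186 CPM in the p-UPF1 IP, a log2 fold change of 0.76 ± 0.07 (edgeR adjusted p = 4.02e-06). For neither gene did the input and p-UPF1 IP libraries overlap. Such separation was common and does not set a gene apart. Of all 16919 genes tested, 28.4% lay wholly higher in the p-UPF1 IP than in input and 41.6% wholly lower. Among the genes picked here, 7 lay wholly higher and 1 wholly lower.

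Among the ubiquitin ligases, Ubr4 rose most. Its level went from 116, 113 and 103 CPM in the input to 204, 233 and 229 CPM in the p-UPF1 IP, a log2 fold change of 0.98 ± 0.08 (edgeR adjusted p = 1.38e-06), so that every p-UPF1 IP library lay well above every input library. The fold change passed 1 when input replicate 1, input replicate 2 or p-UPF1 IP replicate 1 was left out, which raised the number of enriched genes from 1 to 2, as did a fit of all 9 libraries and the filterByExpr filter. Exons of Ubr4 overlap those of Emc1 on the same strand, whose own counts were 1246 in the input libraries together against 7437 for Ubr4, and the assignment of reads between them is uncertain. Herc1 had 74.6, 72.0 and 68.3 CPM in the input and 76.3, 83.9 and 93.7 CPM in the p-UPF1 IP. These ranges did not overlap but came close, and the log2 fold change of 0.21 ± 0.08 (edgeR adjusted p = 0.0405) missed the threshold without input replicate 2 (adjusted p = 0.0541), input replicate 3 (0.0726), p-UPF1 IP replicate 2 (0.0588) or p-UPF1 IP replicate 3 (0.100). Huwe1, the most-counted of the 10 genes, had 208, 197 and 198 CPM in the input and 200.1, 230 and 236 CPM in the p-UPF1 IP. Its ranges overlapped, and its log2 fold change was 0.11 ± 0.07 (edgeR adjusted p = 0.201). Without p-UPF1 IP replicate 1, the lowest of the 3, Huwe1 passed at a log2 fold change of 0.22 (adjusted p = 0.0235), and it also passed with library totals (0.52, adjusted p = 0.000662).

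The plakins parted. Dst rose from 143, 139 and 129 CPM to 198, 208 and 201 CPM, with no overlap, at a log2 fold change of 0.54 ± 0.07 (edgeR adjusted p = 4.52e-05). Macf1 stood at 54.9, 51.6 and 49.5 CPM in the input and at 44.7, 51.0 and 48.0 CPM in the p-UPF1 IP, ranges that overlap, with a log2 fold change of -0.14 ± 0.08 (edgeR adjusted p = 0.119). The sign of this value depends on the scaling, since library totals in place of TMM moved the median of all genes up by 0.41 and put Macf1 higher (0.26, adjusted p = 0.0390), while without a filter on low counts Macf1 was lower (-0.22, adjusted p = 0.0454). The ratio of Dst to Macf1 counts within a library, which needs no scaling, was 2.63 ± 0.0504 in the input and 4.24 ± 0.178 in the p-UPF1 IP (SD, n = 3 each).

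Of the spectrins, Sptan1 rose from 122, 120 and 114 CPM to 179, 167 and 178 CPM, a log2 fold change of 0.53 ± 0.07 (edgeR adjusted p = 5.06e-05). Sptbn1 had 145, 139 and 138 CPM in the input and 149.6, 169 and 157 CPM in the p-UPF1 IP, which did not overlap, but its log2 fold change of 0.15 ± 0.07 did not pass (edgeR adjusted p = 0.0817). It passed without p-UPF1 IP replicate 1 (log2 fold change 0.22, adjusted p = 0.0270), and also with DESeq2 (adjusted p = 0.0237), filterByExpr (0.0377) and library totals (log2 fold change 0.55, adjusted p = 0.000316). The count ratio of the alpha to the beta chain, Sptan1 to Sptbn1, was 0.844 ± 0.0169 in the input and 1.11 ± 0.106 in the p-UPF1 IP (SD, n = 3 each), with no overlap between the libraries.

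Ahnak went the other way. It had 124, 121 and 113 CPM in the input and 55.7, 64.6 and 67.5 CPM in the p-UPF1 IP, a log2 fold change of -0.95 ± 0.08 (edgeR adjusted p = 2.85e-06). The p-UPF1 IP libraries lay wholly below the input, as did 41.6% of all genes. Ahnak was the only one of the 10 genes below the median of all genes. Its rIgG IP libraries, at 67.8, 66.3 and 80.2 CPM, also lay wholly below the input, as did 48.4% of all genes. The log2 fold change of the rIgG IP over input was -0.77 ± 0.21 (edgeR adjusted p = 0.145).

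**Figure D1:**
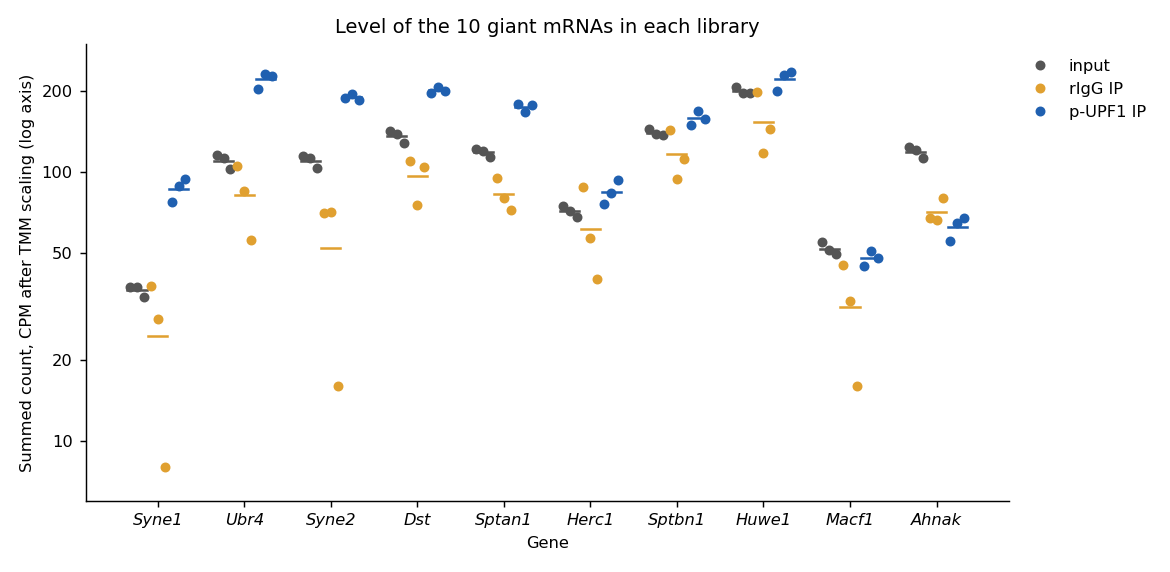
Summed count of each gene in CPM after TMM scaling (log axis) in the 9 libraries. Points are libraries, short lines are means of 3, colours mark input, rIgG IP and p-UPF1 IP. Syne1, Ubr4, Syne2, Dst and Sptan1 sit higher in the p-UPF1 IP than in both other groups, while Ahnak sits at 55.7 to 67.5 CPM, below all 3 of its input libraries.

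The rIgG IP controls for RNA that the beads and an unrelated antibody recover. The depth of these libraries was low: the 10 genes together had 383, 150 and 81 counts in them. In rIgG IP replicate 3 Syne1 had 1 count, Syne2 had 2 and Macf1 had 2, at or under the floor of 3. Against the rIgG IP, 7 of the 10 genes were higher in the p-UPF1 IP and none was lower, where 18.5% of the 12033 genes tested were higher and 5.56% lower. The median log2 fold change was 0.98 over the 10 genes and 0.91 over all genes. Sptbn1 and Huwe1, which were called higher, lay below that median of all genes, as did Macf1, Herc1 and Ahnak. Syne2, the highest of the 10, lay above 68.3% of the genes tested. Higher calls made up 76.9% of all calls in this comparison with TMM, 64.1% with RLE factors and 56.1% with DESeq2.

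The nesprins and Ubr4 had the highest values over the rIgG IP. Syne2 went from 28, 15 and 2 counts (70.3, 71.0 and 16.0 CPM) to 189, 196 and 186 CPM, a log2 fold change of 1.90 ± 0.25 (edgeR adjusted p = 3.02e-06). Syne1 had 1.79 ± 0.30 (adjusted p = 7.23e-05, edgeR), from 15, 6 and 1 counts. The SEs of the 2 nesprins overlap, and without rIgG IP replicate 1 Syne1 (2.28) lay above Syne2 (2.15). Ubr4 had 42, 18 and 7 counts in the rIgG IP and a log2 fold change of 1.55 ± 0.22 (adjusted p = 8.32e-06, edgeR). These 3 genes also led the comparison with input, which shares the p-UPF1 IP libraries.

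Dst (1.28 ± 0.21, adjusted p = 6.61e-05) and Sptan1 (1.26 ± 0.21, adjusted p = 8.52e-05) were also higher by the edgeR test, and these calls, with those of Syne1, Syne2 and Ubr4, held in all 13 alternative fits. Sptbn1 (0.62 ± 0.20, adjusted p = 0.0274) and Huwe1 (0.70 ± 0.20, adjusted p = 0.0138) were called by edgeR in the fit as planned, but the call held in 2 of 13 and in 5 of 13 alternatives. Sptbn1 missed the threshold without rIgG IP replicate 2 (adjusted p = 0.278) or 3 (0.0998) and without p-UPF1 IP replicate 1 (0.0587), 2 (0.131) or 3 (0.0718). Huwe1 missed it without rIgG IP replicate 2 (adjusted p = 0.208) or 3 (0.0723) and without p-UPF1 IP replicate 2 (0.0712) or 3 (0.0608).

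Macf1 (log2 fold change 0.64 ± 0.29, edgeR adjusted p = 0.111) and Herc1 (0.52 ± 0.24, adjusted p = 0.117) did not pass. Ahnak had 27, 14 and 10 counts in the rIgG IP, or 67.8, 66.3 and 80.2 CPM, which overlapped the 55.7 to 67.5 CPM of the p-UPF1 IP. Its log2 fold change of 0.09 ± 0.23 (edgeR adjusted p = 0.797) turned negative with RLE factors (-0.20) and with DESeq2 (-0.21), and without rIgG IP replicate 2 (-0.04).

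Between the rIgG IP and input, none of the 10 genes passed by edgeR, and 4 had an unadjusted p under 0.05, as did 12.4% of all genes. By adjusted p, 0.584% of the 16280 genes tested were higher and 0.313% lower. Over all genes these calls, 95 higher and 51 lower, moved to 183 and 134 without input replicate 2 and to 65 and 25 without rIgG IP replicate 2. DESeq2 also called none of the 10. The log2 fold changes lay between -0.87 for Syne2 (SE 0.28, edgeR adjusted p = 0.224) and -0.05 for Herc1, with a median of -0.39 against -0.84 over all genes. Syne2 was called lower (-0.91, adjusted p = 0.0301) without a filter on low counts. The 10 genes together had 81 to 383 counts in an rIgG IP library.

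**Figure D2:**
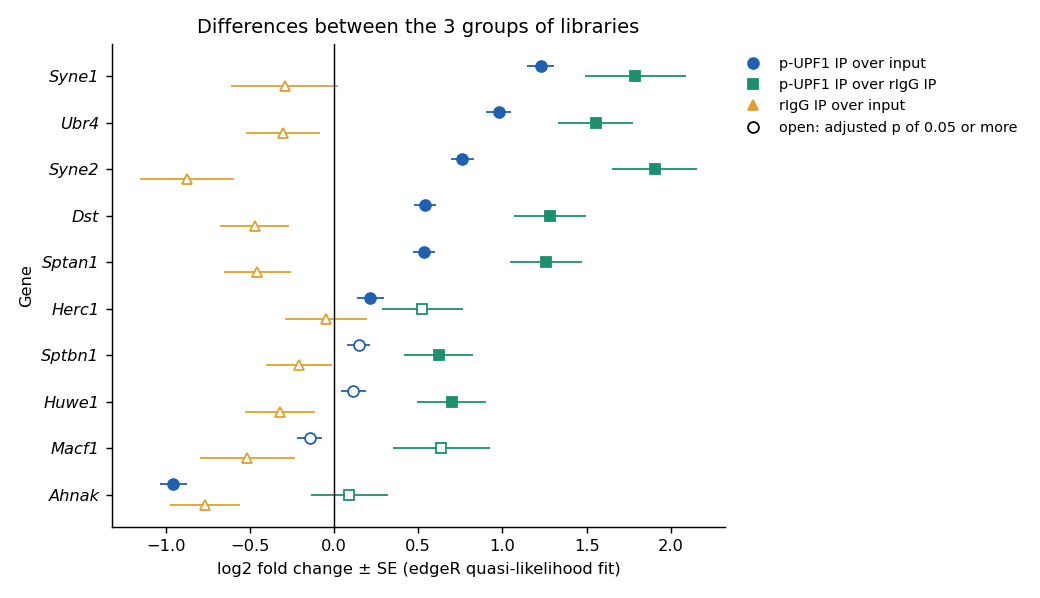
log2 fold change ± SE of each gene from the edgeR fit (x axis) for p-UPF1 IP over input, p-UPF1 IP over rIgG IP and rIgG IP over input; filled symbols passed an adjusted p of 0.05. Syne1, Ubr4, Syne2, Dst and Sptan1 are filled in both comparisons of the p-UPF1 IP, at 0.53 to 1.23 over input, and Ahnak over input is the filled symbol left of 0.

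Ratios between related members, which no scaling factor enters, moved with these differences. Ubr4 to Huwe1 was 0.556, 0.575 and 0.519 in the input against 1.02, 1.01 and 0.969 in the p-UPF1 IP. Ubr4 to Herc1 went from 1.54 ± 0.0371 to 2.63 ± 0.172, and Syne1 to Syne2 from 0.330 ± 0.00477 to 0.455 ± 0.0489 (SD, n = 3 each). Within each of these pairs the input and p-UPF1 IP libraries did not overlap. Herc1 to Huwe1 moved least, at 0.356 ± 0.0100 and 0.381 ± 0.0161. Taken from counts summed over the 3 rIgG IP libraries, Ubr4 to Huwe1 was 0.549, near its input value, while Syne1 to Syne2 was 0.489, near its p-UPF1 IP value, on 22 counts of Syne1.

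The 10 genes did not stand at an end of the genes with long coding sequences. GENCODE M21 gave 219 other tested genes a coding sequence of at least 7089 nt, the length of Sptbn1. Of these, 90 (41.1%) were higher in the p-UPF1 IP than in input, 64 (29.2%) lower and 65 not past the threshold, with a median log2 fold change of 0.13. With library totals 121 were higher and 39 lower. Of the 10, 7 lay above that median. Among the longest of the 219, directions differed: Neb was higher (log2 fold change 1.25, edgeR adjusted p = 0.0240), as was Mdn1 (0.94, adjusted p = 1.15e-06), Ttn was lower (-6.30, adjusted p = 0.00310), and Gm11639 had 1.10 (adjusted p = 0.180). Among the 46 genes of this kind with an input level at or above 36.4 CPM, that of Syne1, 17 were higher, 23 lower and 6 neither, with a median of -0.21. This selection by level was made after the values were seen. Over the rIgG IP, 67 of 196 such long genes (34.2%) were higher and 4 lower, and their median of 0.90 lay beside 0.98 for the 10 genes. The count of higher genes was 43, 38 and 42 without rIgG IP replicate 1, 2 and 3, and that of lower genes 0, 2 and 8, with 2 lower also without p-UPF1 IP replicate 1.

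Coding length set the shortest genes apart more than the longest. The median log2 fold change over input was -1.19 for 1658 genes with a coding sequence of at most 600 nt, -0.34 from 601 to 1200 nt, -0.02 from 1801 to 2400 nt and 0.14 from 2401 to 3600 nt. Above that it stayed level, at 0.22, 0.18 and 0.18 in the bins of 3601 to 4800 nt, 4801 to 7088 nt and 7089 nt or more. Across the 10 genes, coding length went with the fold change at a Spearman rho of 0.345 and across the other 219 at -0.00354. These correlations, and those that follow, are across genes of the same 6 libraries, which are not independent replicates, and are given as descriptions.

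The number of exons and the GC content went with the fold change more closely among the 10. For exons, rho was 0.782 over the 10 genes (Pearson r 0.814) but 0.100 over the other 219 long genes. For GC content of the longest coding transcript, rho was 0.794 over the 10 genes (r 0.698), 0.617 over the 219 and 0.417 over 12760 genes with a coding transcript. Ubr4 had the highest GC content of the 10 (54.5%) and Macf1 (46.9%), Herc1 (47.0%) and Ahnak (47.6%) the lowest. The part of GC content in the differences was not tested. Among the 229 long genes, 14 had at most 12 exons, a limit chosen after the values were seen. Of these, Ahnak included, 2 were higher, 8 lower and 4 neither (median -0.99), with Map1a and Map1b, microtubule-associated proteins, the 2 that were higher (0.83 and 0.86).

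**Figure D3:**
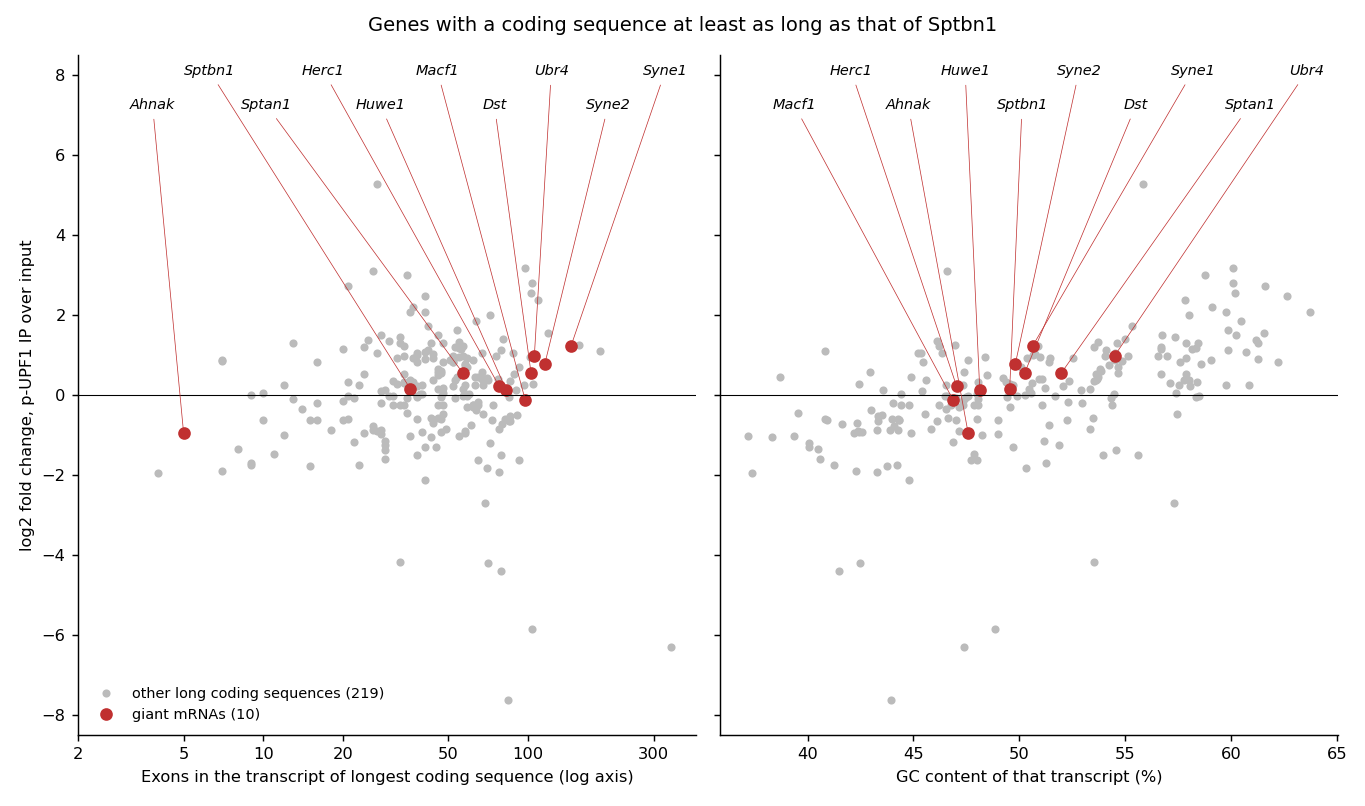
log2 fold change of the p-UPF1 IP over input (y axis) for 229 genes with a coding sequence of 7089 nt or more, against the number of exons (left, log axis) and the GC content in percent (right) of the longest coding transcript. Genes of higher GC content have higher values among the 10 (red) and the 219 others (grey, rho 0.617), and Ahnak stands apart on the left at 5 exons.

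Relatives of the 10 genes, taken from lists of their families and partners, moved both ways over input. The counts that follow stand beside 26.3% of all genes higher and 35.7% lower. Of the other spectrins, 3 had enough counts. Sptbn4, a beta spectrin of the axon initial segment, rose from 4.32 ± 0.953 to 18.5 ± 1.38 CPM (log2 fold change 2.07 ± 0.15, edgeR adjusted p = 1.12e-06). Sptb, the erythroid beta chain, rose on 4 to 10 counts a library (1.36, adjusted p = 0.0313). The number of these spectrins called fell to 1 without any of the input replicates or without p-UPF1 IP replicate 1 or 3, and was 3 with library totals. Of 14 tested spectrin partners (ankyrins, adducins, proteins 4.1 and tropomodulins), 3 rose and 6 fell, with a median of 0.01, and with library totals 8 rose and 5 fell. The ankyrins that anchor spectrin at membranes did not pass (Ank2 0.13, adjusted p = 0.137, and Ank3 0.00, adjusted p = 0.983), and Tmod2 fell by 0.93 on the log2 scale (adjusted p = 7.87e-06).

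Among the plakins, Plec, which links intermediate filaments to other structures, rose from 48.9 ± 3.26 to 122 ± 5.98 CPM (log2 fold change 1.30 ± 0.07, edgeR adjusted p = 1.58e-07). Evpl rose on 3 or 4 counts a library (1.86, adjusted p = 0.02), and without input replicate 3 only 1 of these 2 plakins was called. Dsp was at 0 in every library, and Ppl and Eppk1 were not tested. Of the nesprin relatives and their partners at the nuclear envelope (the LINC complex and the lamina), 6 of 10 tested rose and 2 fell, with a median of 0.90. Sun2, which binds nesprins across the envelope, rose from 11.5 ± 1.39 to 48.6 ± 3.49 CPM (2.05, adjusted p = 5.99e-08), while Sun1 had -0.04 (adjusted p = 0.693). The lamins Lmna (1.28, adjusted p = 1.12e-06) and Lmnb2 (2.33, adjusted p = 4.42e-08) and the nesprin Syne3 (1.27, adjusted p = 4.12e-05) rose, and Emd, which encodes emerin, fell by 2.10 on the log2 scale (adjusted p = 1.82e-05).

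Of the 3 relatives and partners of Ahnak, 2 fell and 1 rose. S100a10 dropped by 4.06 on the log2 scale (31.8 ± 2.35 to 1.93 ± 0.287 CPM, edgeR adjusted p = 4.84e-09) and Anxa2, with which S100a10 forms a membrane complex, dropped by 1.68 (adjusted p = 7.43e-07), whereas Ahnak2 rose by 0.91 (adjusted p = 0.000653). S100a10 and Anxa2 have short coding sequences of 291 and 1017 nt.

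Of the 6 other ligases with a UBR box, the domain that reads N-terminal degradation signals, 2 rose and 4 fell, 2 and 2 with library totals. Leaving out replicate 1 or 2, of the input or of the p-UPF1 IP, left 1 that rose. Ubr2 rose (0.65 ± 0.07, edgeR adjusted p = 2.68e-05), and Ubr3 (-1.26, adjusted p = 5.44e-06) fell. Of 23 other HECT ligases tested, 7 rose and 9 fell, with a median of -0.31, shares near the 26.3% and 35.7% of all genes. With library totals 10 rose and 4 fell. Herc2, the closest relative of Herc1, rose from 36.4 ± 3.66 to 60.1 ± 1.37 CPM (0.70 ± 0.08, adjusted p = 3.86e-05). Trip12, which had 69.4 ± 2.98 CPM in the input, fell by 1.24 on the log2 scale (adjusted p = 2.86e-07), and Ube3a, the Angelman syndrome ligase, fell by 1.42 (adjusted p = 4.76e-07). The largest rise of the list was that of Smurf1 (2.47, adjusted p = 2.2e-09), named after its values were seen.

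Over the rIgG IP, 1 of 3 other spectrins, 2 of 13 spectrin partners, 1 of 2 other plakins, 3 of 10 nesprin relatives and partners and 4 of 22 other HECT ligases were higher, and none of these was lower. Of the 6 other UBR-box ligases 1 was higher and 1 lower, and of the 3 relatives of Ahnak 1, S100a10, was lower (log2 fold change -3.24). Of all genes tested over the rIgG IP, 18.5% were higher and 5.56% lower. Of the 13 neuroblastoma markers tested over input, 4 were higher and 5 lower, beside 26.3% and 35.7% of all genes.

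By transcript, the same 10 genes looked different. Of their 135 transcripts, 96 had enough counts to be tested over input, and 10 were enriched and 11 depleted at a log2 fold change past 1 in either direction, where 8.55% and 16.2% of the 42616 transcripts tested were. In 6 genes (Dst, Huwe1, Sptan1, Sptbn1, Syne1 and Syne2) the same gene held an enriched and a depleted transcript.

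In 4 genes the leading transcript changed within a pair of nearly identical full-length transcripts, in all libraries of both groups. In Macf1 the leader by mean level also changed, from Macf1-202 to Macf1-203, but it varied between replicate libraries. The transcript counts are unscaled, and the input libraries were the deeper ones (at least 25184464 counts against at most 6246110 in the p-UPF1 IP). In Syne2, Syne2-210 had 2176, 2041 and 2181 counts in the input against 126, 0 and 104 in the p-UPF1 IP, while Syne2-201 had 0 in all 3 input libraries and 850, 1210 and 1051 in the p-UPF1 IP. Huwe1-202 fell from 3548, 3315 and 3552 counts to 0 in all 3 p-UPF1 IP libraries, as Huwe1-201 went from 210, 102 and 116 to 974, 1337 and 1328. In Ubr4, Ubr4-201 had 1698, 1606 and 1871 counts in the input against 298, 317 and 317 in the p-UPF1 IP, and Ubr4-212 had 0 in the input against 546, 983 and 766 in the p-UPF1 IP. In Sptan1, Sptan1-208 went from 1808, 1573 and 2111 counts to 109, 228 and 160, and Sptan1-204 from 0 to 769, 678 and 848.

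The transcripts of a pair share nearly all of their sequence. Of all windows of 35 nt, the shortest read kept by the authors, 0.494% of those in Syne2-210 and 0.429% of those in Syne2-201 were absent from the other. For Huwe1-202 the share was 0.233%, and for Huwe1-201, which has 2 more non-coding exons at its 5′ end, 3.05%. It was 1.43% for Ubr4-201, 0.622% for Ubr4-212, 2.52% for Sptan1-208 and 7.11% for Sptan1-204. The counts of a pair therefore rest on estimates from few reads, while the sum over the gene does not depend on this choice. The coding exons of 1 transcript of a pair that are wholly absent from the other are printed to show how little sequence separates the members of a pair. The pairs also differ at shifted exon ends and, for Sptan1-204 and Huwe1-201, in non-coding 5′ exons, which are not printed. They come from the GENCODE M21 transcripts (GRCm38), read 5′ to 3′ on the plus strand with the exon in capitals and 15 flanking bases of the neighbouring exons in lower case.
Ubr4-201, exon of 105 nt at chr4:139441192-139441296, absent from Ubr4-212: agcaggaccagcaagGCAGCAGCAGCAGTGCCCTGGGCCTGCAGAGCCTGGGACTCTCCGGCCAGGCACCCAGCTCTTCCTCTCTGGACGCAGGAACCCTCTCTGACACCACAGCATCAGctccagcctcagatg
Ubr4-212, exon of 33 nt at chr4:139432482-139432514, absent from Ubr4-201: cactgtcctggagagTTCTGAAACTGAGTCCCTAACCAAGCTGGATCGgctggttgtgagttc
Sptan1-208, exon of 60 nt at chr2:30001100-30001159, absent from Sptan1-204: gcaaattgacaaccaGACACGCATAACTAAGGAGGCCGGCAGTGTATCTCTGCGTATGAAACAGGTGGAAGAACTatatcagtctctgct
Sptan1-208, exon of 63 nt at chr2:30028644-30028706, absent from Sptan1-204: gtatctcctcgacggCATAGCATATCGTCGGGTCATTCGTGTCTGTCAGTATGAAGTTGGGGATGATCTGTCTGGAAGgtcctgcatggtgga
Syne2-201, exon of 25 nt at chr12:76108287-76108311, absent from Syne2-210: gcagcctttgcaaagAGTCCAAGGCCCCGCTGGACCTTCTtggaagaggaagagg

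The exons of Ubr4 and Sptan1 hold whole numbers of codons (35, 11, 20 and 21), and that of Syne2 does not. In Syne2-201 the exon at chr12:76108874-76108910 (37 nt) takes the place of one at chr12:76108864-76108910 (47 nt) in Syne2-210. In Huwe1, a coding exon on chromosome X begins at 151898444 in Huwe1-201 and at 151898447 in Huwe1-202.

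The assignment also varied between replicate libraries of 1 group. In the rIgG IP, Huwe1-201 had 72, 0 and 0 counts and Huwe1-202 had 0, 14 and 13. Ubr4-201 had 42, 0 and 0 there and Ubr4-212 had 0, 6 and 5. In the input, Macf1-202 had 705, 0 and 733 counts and Macf1-201 had 0, 406 and 0, while Macf1-203, the most-counted in the p-UPF1 IP, had 0, 0 and 33 in the input and 140, 73 and 189 there. Of 42 transcripts of the 10 genes that reached 50 counts in an input library, 8 had 0 in another input library, and in the p-UPF1 IP this held for 7 of 27. No gene was at 0 in any library when its transcripts were summed. The most-counted transcript was the same in input and p-UPF1 IP for Dst (Dst-202), Herc1 (Herc1-201), Sptbn1 (Sptbn1-201), Syne1 (Syne1-205) and Ahnak (Ahnak-202). Of these, Ahnak-202 had 93.6% of its windows to itself and fell from 2732, 2562 and 2697 counts to 289, 420 and 395 (log2 fold change -1.37, edgeR adjusted p = 0.000506).

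**Figure D4:**
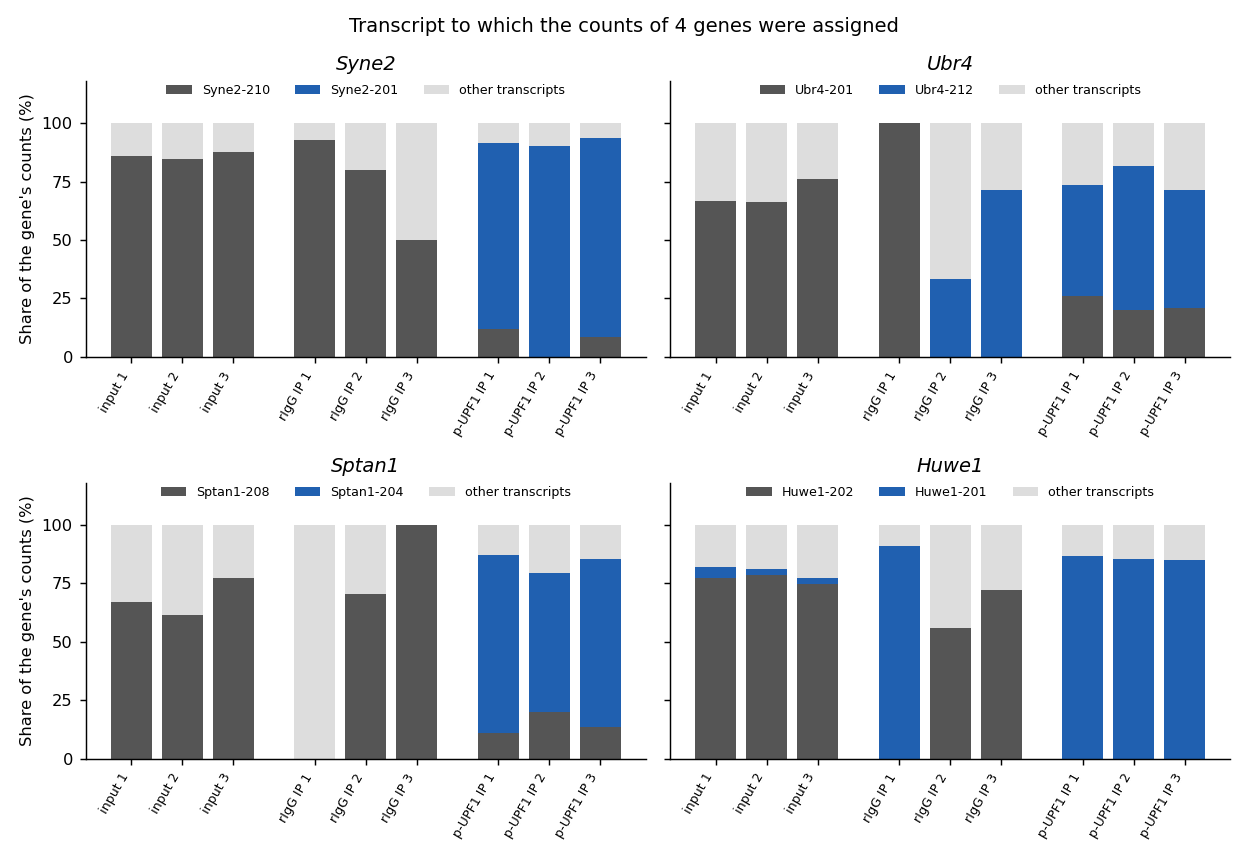
Share of each gene's counts (y axis, percent) assigned to the transcript most counted in the input (dark grey), to the one most counted in the p-UPF1 IP (blue) and to all others (light grey), in each of the 9 libraries. In Syne2, Ubr4, Sptan1 and Huwe1 the dark grey transcript leads in all 3 input libraries and the blue one in all 3 p-UPF1 IP libraries, and the rIgG IP libraries of Ubr4 and Huwe1 are split.

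Transcripts annotated as NMD targets were few among the 10 genes, 7 in all. Their summed level was 22.04, 18.4 and 22.5 CPM in the input, 12.3, 6.74 and 9.66 CPM in the p-UPF1 IP, and 1, 7 and 0 counts in the rIgG IP. Huwe1-211 fell from 268, 189 and 367 counts to 0 in all 3 p-UPF1 IP libraries, but only 0.842% of its windows are its own. Syne2-206 went from 191, 157 and 145 counts to 42, 38 and 0, with 2.49% of its windows its own. Huwe1-211 and Syne2-206 held most of the input counts of this type. The summed level of the NMD transcripts thus rests largely on how shared reads were assigned. Transcripts with retained introns, 47 in all, had summed levels of 40.1, 47.9 and 39.1 CPM in the input and 67.6, 72.5 and 70.8 CPM in the p-UPF1 IP. In the rIgG IP the retained-intron sum was 20.1, 47.4 and 64.2 CPM, on 8, 10 and 8 counts. The 68 protein-coding transcripts also rose, from 1067, 1023 and 979 CPM in the input to 1286, 1402 and 1400 CPM in the p-UPF1 IP. None of these sums overlapped between input and p-UPF1 IP, and none was tested. Sptbn1-205, of 744 nt with 61.5% of its windows its own, rose from 2, 4 and 1 counts to 23, 20 and 28 (log2 fold change 4.72 ± 0.65, edgeR adjusted p = 0.00472). Huwe1-207, with 11.8% of its windows its own, went from 5, 18 and 7 to 58, 92 and 80 (4.38 ± 0.57, adjusted p = 0.00394). Each made up a small part of its gene, which had 2966 to 3312 counts in an input library for Sptbn1 and 4213 to 4752 for Huwe1.

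The other called transcripts had fewer counts than the leading transcripts of their genes. Windows of their own made up 0% of Dst-204 and Dst-208, 0.316% of Syne1-201 and 3.35% of Syne1-207. The share was 10.3% for Huwe1-206, 11.1% for Sptan1-206, 31.3% for Sptbn1-203, 38.4% for Dst-220 and 38.9% for Huwe1-210. Where this share is small, the counts rest on how shared reads were assigned. Depleted ones at 0 in all 3 p-UPF1 IP libraries were Dst-204 (234, 78 and 216 counts in the input), Huwe1-210 (272, 244 and 318), Sptan1-206 (55, 112 and 24), Syne1-201 (26, 32 and 35) and Syne2-213 (136, 56 and 110). Huwe1-206 went from 89, 140 and 180 counts to 0, 3 and 0, and Sptbn1-203 from 147, 123 and 147 to 20, 22 and 25 (log2 fold change -1.14, edgeR adjusted p = 0.00882). Enriched ones at 0 in all 3 input libraries were Dst-208 (29, 36 and 16 counts in the p-UPF1 IP), Syne1-207 (6, 4 and 18) and Ubr4-208 (16, 7 and 9), and Dst-220 went from 15, 15 and 11 counts to 40, 10 and 30 (2.49, adjusted p = 0.0395).

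Across all 9 libraries, the genes whose level went most like the mean log2 CPM of the 10 were Slc7a5, an amino acid transporter (Pearson r 0.982), Insig1, a regulator of sterol synthesis (0.980), Lars2, a mitochondrial leucyl-tRNA synthetase (0.971), Gnas (0.968) and Gm42566 (0.964), out of 794 genes with at least 3 counts in every library. The coding sequences of Slc7a5, Insig1, Lars2 and Gnas have 1536, 777, 2706 and 3399 nt, shorter than those of the 10. Against the mean of the other 9 members, each of the 10 had an r between 0.817 and 0.941 apart from Ahnak, which had -0.173. Syne1 (1 count), Syne2 (2) and Macf1 (2) were under the limit of 3 counts in rIgG IP replicate 3. They still entered these means, so the values of r rest in part on counts near the floor.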

How the data were processed

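The members and the gene lists were chosen with earlier results of these data known. Reads from RNase I fragments were trimmed with fastp, aligned with STAR 2.7.0f to GRCm38.p6 and quantified with Salmon 0.13.1 by the authors, who deposited estimated counts per transcript, unscaled. Here the counts were summed over the transcripts of each gene symbol, and 139921 of 140658 transcripts were matched to GENCODE M21. Comparisons used edgeR 4.0.16 (quasi-likelihood test, TMM) in R 4.3.3 on 6 libraries, with a summed count of at least 10 and Benjamini-Hochberg adjustment over all features. Genes were called at an adjusted p under 0.05, and transcripts also at a log2 fold change past 1 in either direction. The edgeR test gives no SE. The SE printed here is the absolute log2 fold change divided by the square root of the F statistic of the test. Scripts were tested on simulated data. As alternatives, no filter, filterByExpr, library totals, RLE factors, DESeq2 1.42.0, a fit of all 9 libraries, a replicate block and leaving out each library were run. The planned comparison by protein length was made by coding length, because protein sequences were not used here. Named were all 10 members, their most-counted transcripts and the 2 called ones of smallest p per gene, up to 3 genes a list by input level and set relatives, the 5 genes most like the members and the longest comparators. Other list genes and called transcripts were named after their values were seen. Some genes of these lists are not reported here.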

Additional observations from a re-analysis of the deposited data

How the results depend on the processing

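Over input, between 6 and 9 members were called when 1 library was left out (5 to 8 higher, 1 to 1 lower), against 7 in the full fit, and without a filter on low counts 2 were lower. With library totals all 10 were called, 9 higher and 1 lower, as Sptbn1, Huwe1 and Macf1 joined. Syne1, Ubr4, Syne2, Dst, Sptan1 and Ahnak kept their calls in all 13 alternatives. Over the rIgG IP, 5 to 7 were called with 1 library left out. In the comparison of the rIgG IP with input none was called with 1 library left out, and without a filter 1 was called, as lower. With library totals the value of Macf1 over input turned to 0.26. Over the rIgG IP, Ahnak turned to -0.21 with DESeq2, -0.20 under RLE factors, -0.0147 under library totals and -0.27 under filterByExpr, and lay between -0.0431 and 0.138 with 1 library left out. In the rIgG IP over input, Sptbn1 turned to 0.10 with DESeq2, 0.0869 under RLE factors and 0.0513 under library totals. With DESeq2, Syne1 turned to 0.00548, Ubr4 to 0.00280 and Huwe1 to 0.00285. Herc1 turned to 0.26 with DESeq2, 0.24 under RLE factors, 0.18 under library totals and 0.0225 under filterByExpr, and lay between -0.50 and 0.0626 with 1 library left out. The cause of these turns was not tested.

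Of the members' transcripts, 21 were called, 10 enriched and 11 depleted. With DESeq2 34 were called, 19 of them enriched, and with library totals 17 were enriched. With 1 library left out, 18 to 25 were called, 9 to 13 enriched and 9 to 14 depleted. Same-numbered replicates did not deviate together, with correlations between -0.0066 and 0.049 over input. The labels do not say whether the numbers pair the libraries. These correlations cannot decide it, since paired libraries may share too little deviation to show. With the replicate as a block, 7 members were called over input, 5 over the rIgG IP and 0 between the rIgG IP and input, and 10 transcripts were called, 6 enriched and 4 depleted.

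Over the rIgG IP, 2222 genes of all were higher, against 1254 with DESeq2, 1480 with filterByExpr, 1425 with the replicate block, 1312 without rIgG IP replicate 1 and 1415 without rIgG IP replicate 2, and 669 were lower, against 428 with the block and 311 without rIgG IP replicate 1. In the rIgG IP over input, the 95 genes higher ran from 65 to 305 over the alternatives and the 51 lower from 25 to 295. The rIgG IP libraries held 79010 to 474491 counts.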
